A study of Mus musculus with 6 samples.

Results

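The genes described here encode the digestive enzymes, membrane proteins and proton pump of the lysosome in mouse macrophages. They are 43 genes chosen by name, with earlier results of these data known, in 4 classes: 10 cathepsins and related proteases, 13 other hydrolases and activators, 5 membrane proteins, and 15 subunits or accessory proteins of the proton pump (V-ATPase). All 43 were found by GENCODE M21 symbol among the 54532 genes listed for each library. The libraries came from immortalized bone marrow-derived macrophages (iBMDMs), a cell line made from wild-type mouse marrow cells with retroviruses carrying v-raf and v-myc. Cells carried either a control shRNA (control) or an shRNA against PGAM5 (PGAM5 KD), and the study asked what this mitochondrial phosphatase does in the inflammatory response of macrophages. All 6 libraries, 3 per group, were prepared after 4 hours of LPS at 100 ng/ml, so no unstimulated cells enter the comparison. The shRNAs were delivered by lentivirus into 1 immortalized line, the labels name 1 shRNA per group, and whether the replicates were separate infections or cultures is not given, so that p-values measure only the spread between these libraries.

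Lysosomes are acidic organelles that break down material taken up from outside the cell or delivered from within it. The V-ATPase acidifies the lumen by coupling ATP hydrolysis in its cytosolic V1 sector to proton transport through its membrane V0 sector, and most lysosomal hydrolases, the cathepsins among them, work best at that low pH. Macrophages depend on these enzymes to digest engulfed microbes and dead cells and to trim antigens and lipids, and many lysosomal genes share promoter elements bound by TFEB and its relatives.

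Values are FPKM (fragments per kilobase of exon, relative to library size), which are scaled by exon length. That length covers all annotated exons of a gene, from any of its transcripts, such as 1257 bases for Cd68 and 6051 for Ctsb. Levels of different genes therefore compare only roughly, and abundance below means FPKM. A change is the difference between PGAM5 KD and control means on the log2(FPKM + 1) scale with its standard error, and a gene was called higher or lower at a limma adjusted p under 0.05 over all 10540 genes with a mean of at least 1 FPKM. The libraries hold 18163464 to 24388917 fragments recovered from the FPKM, and a tested lysosomal gene had between 201 and 48829 of them in a library. Pgam5, the targeted gene, was at 17.1, 13.0 and 13.4 FPKM in control and at 4.33, 5.75 and 4.53 FPKM in PGAM5 KD libraries, a log2 change of −1.40 ± 0.13 (SE; limma, adjusted p = 0.000358). Of 10 macrophage markers, Mertk, named after its values were seen, was listed at 0 in every library. The list summed to between 2515 and 2591 FPKM in control and between 2283 and 2312 FPKM in PGAM5 KD. Most of that sum was Lyz2 (named after its values were seen), at 1638 to 1698 FPKM in control and 1239 to 1279 FPKM in PGAM5 KD. Of 7 tested, 4 were called higher, against 16.8% of all genes tested, and 2 lower, against 14.9%. Their median log2 change was 0.565. Marker lists of neutrophils, fibroblasts, lymphocytes and dendritic cells each summed to at most 0.613 FPKM in any library.

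Of the 43 genes, 42 passed the filter on low values. Ctsh (cathepsin H) did not, at 0.171 to 0.352 FPKM over the 6 libraries. In PGAM5 KD, 21 of the 42 genes were lower, against a background of 14.9% of all genes tested, and 6 were higher, against 16.8%. The remaining 15 did not pass the threshold. The median log2 change was −0.131 over the 42 genes and 0.013 over all genes tested. The changes were small. None of the 42 passed the threshold that the study used for differential expression, which adds an absolute log2 change above 1. Over all genes tested 1.32% did, so that none among 42 genes is near the background. In 25 of the 42 genes every PGAM5 KD library was below every control library, against 22.9% of all genes tested, and in 8 every PGAM5 KD library was above, against 24.2%. Scaling each library to TPM, with the same pseudocount and minimum applied to TPM and therefore 12631 genes tested, moved this balance: 22.2% of the called lysosomal genes and 52.9% of all called genes were higher as deposited, and 10.0% and 32.3% in that setting, where 27 were lower and 3 higher. In bulk RNA, fewer cells with a transcript and less of it per cell cannot be told apart.

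**Figure D1:**
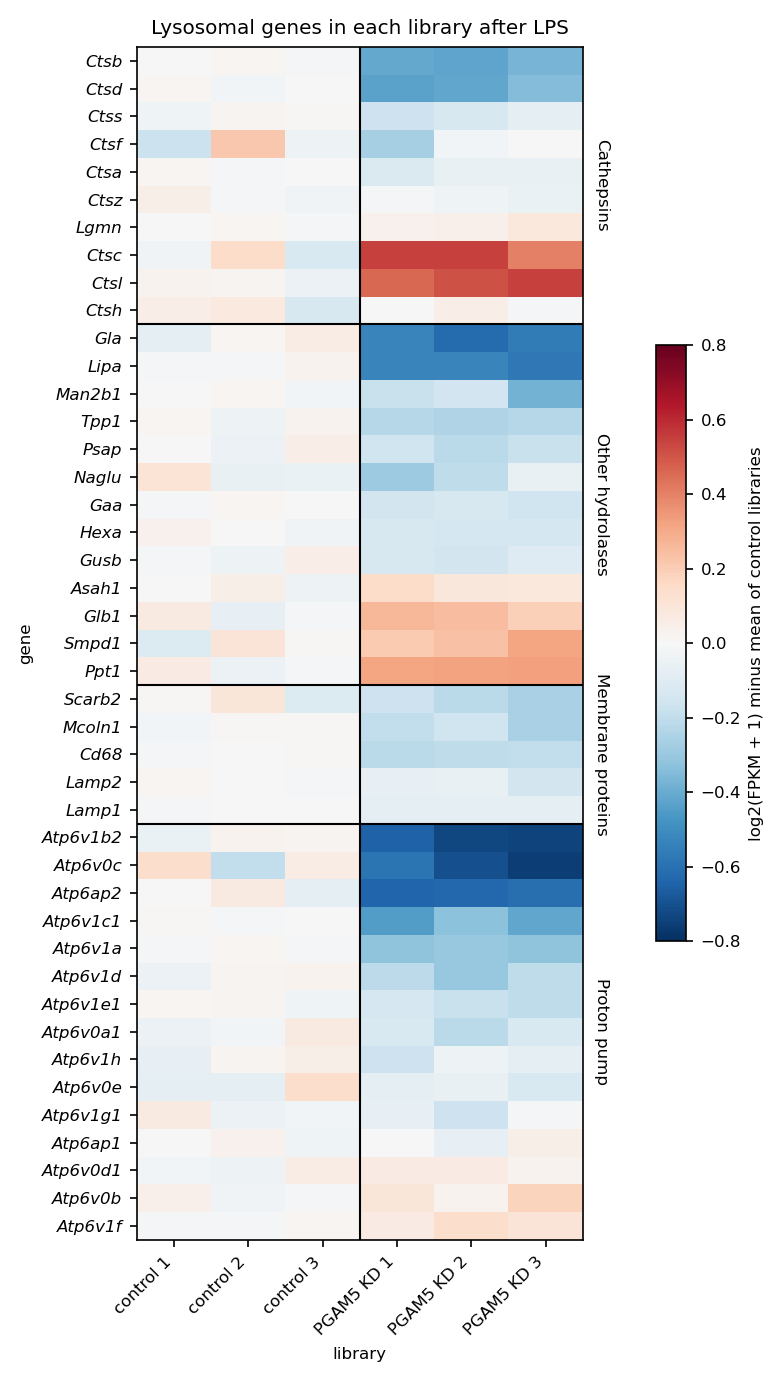
Level of each of the 43 genes (rows, by class) in each of the 6 libraries (columns), as log2(FPKM + 1) minus the mean of the 3 control libraries. The strongest blue rows, lower in all PGAM5 KD libraries, are Gla, Lipa, Atp6v1b2, Atp6v0c and Atp6ap2, and the strongest red rows are Ctsc and Ctsl.

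The cathepsins split in direction. The 2 with the largest decrease were Ctsb and Ctsd, abundant proteases that most macrophages carry, whereas Ctsl and Ctsc were higher. Ctsb (cathepsin B, a cysteine protease; ENSMUSG00000021939, chr14:63122462-63145923 in GRCm38) was at 394, 400 and 392 FPKM in control and at 297, 295 and 305 FPKM in PGAM5 KD. Its log2 change was −0.40 ± 0.03 (limma, adjusted p = 9.44e-05). Ctsd (cathepsin D, the main aspartic protease of lysosomes; ENSMUSG00000007891, chr7:142375911-142388038) was at 228, 222 and 226 FPKM in control and at 167, 169 and 177 FPKM in PGAM5 KD, a change of −0.40 ± 0.03 (limma, adjusted p = 0.000202). For both genes all PGAM5 KD libraries lay below all control libraries, and the spread within each group was far smaller than the gap between groups. Ctsd shares 808 exonic bases, 34.4% of its exon length, with the gene model Gm49369 on the same strand. Gm49369 was listed at 0 in all libraries, which does not tell how reads in the shared bases were counted.

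Ctsl (cathepsin L, a cysteine endopeptidase; ENSMUSG00000021477, chr13:64359337-64370890) moved the other way, from 31.7, 31.6 and 30.1 FPKM in control to 43.2, 44.7 and 46.0 FPKM in PGAM5 KD, a log2 change of 0.51 ± 0.04 (limma, adjusted p = 0.000198). Ctsc (cathepsin C, an exopeptidase that activates serine proteases of immune granules) was at 3.60, 4.20 and 3.32 FPKM in control and at 5.87, 5.87 and 5.21 FPKM in PGAM5 KD, a change of 0.50 ± 0.09 (limma, adjusted p = 0.00601). For both, the lowest PGAM5 KD library exceeded the highest control library. The level of Ctsc was far below that of Ctsl, which in turn was below those of Ctsb and Ctsd in every library. An antisense gene model, Gm47123, covers 26.8% of the Ctsl exon length. It was listed at 0 throughout, which does not tell how reads in the shared bases were counted.

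Ctss (cathepsin S, which processes the invariant chain for antigen presentation) was at 239, 248 and 246 FPKM in control and at 218, 223 and 232 FPKM in PGAM5 KD. It was called lower with a small change of −0.13 ± 0.03 (limma, adjusted p = 0.0295). The call was lost without control replicate 2 or 3 or without PGAM5 KD replicate 1 or 2, with limma adjusted p from 0.0624 to 0.0901. Ctsz (cathepsin Z, a carboxypeptidase) matched Ctsb as the most abundant cathepsin gene in control, at 384 to 403 FPKM, and was at 376 to 389 FPKM in PGAM5 KD. Its groups overlapped, and it did not pass the threshold (limma, adjusted p = 0.475), but with quantile normalization it was called lower at −0.19 (limma, adjusted p = 0.00407). As deposited, the order of FPKM at the top differed between groups. Ctsz and Ctsb overlapped in control, whereas every PGAM5 KD library had a higher FPKM for Ctsz than for Ctsb.

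The other 3 tested cathepsins did not pass the threshold. Ctsa (a carboxypeptidase that also protects other lysosomal enzymes) lay at 148 to 151 FPKM in control and 138 to 143 FPKM in PGAM5 KD, without overlap, at a log2 difference of −0.08 ± 0.03 (limma, adjusted p = 0.0782). It was called lower after scaling to TPM or quantile normalization, both at −0.16, and by voom at −0.08 (limma, adjusted p = 0.00621, 0.0067 and 0.0373). Lgmn (legumain, an asparaginyl endopeptidase that matures cathepsins) lay at 162 to 166 and 168 to 174 FPKM, and Ctsf (cathepsin F) at 9.0 to 12.1 and 8.39 to 10.3 FPKM. Summed over the 10 genes, cathepsin transcripts were at 1603 to 1623 FPKM in control and 1435 to 1468 FPKM in PGAM5 KD, a ratio of 0.897, so that the gains of Ctsl and Ctsc were smaller in level than the losses of Ctsb and Ctsd.

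**Figure D2:**
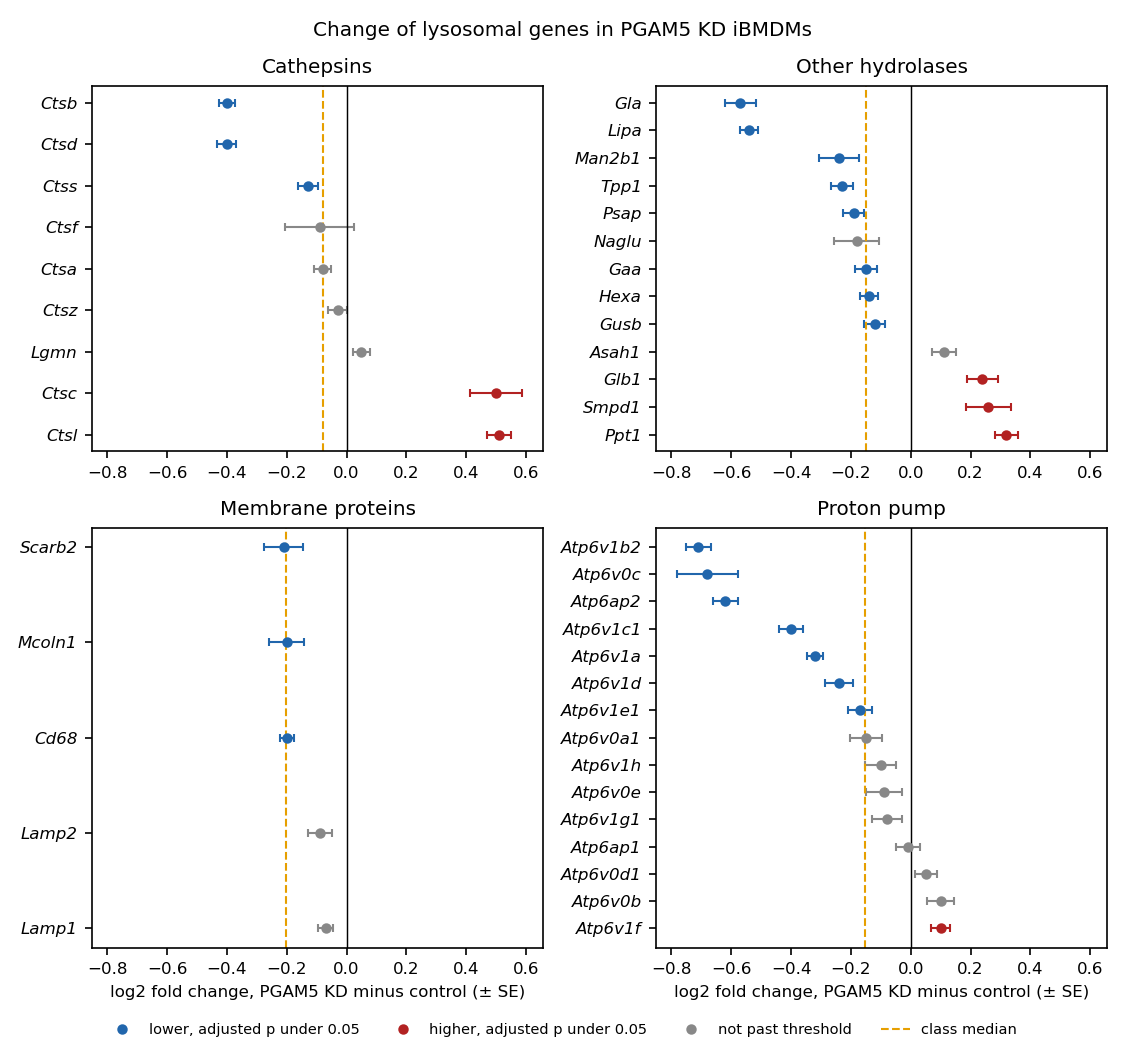
Log2 fold change of each tested lysosomal gene (PGAM5 KD minus control, horizontal axis, points with standard error bars) in the 4 classes, with the class median as a dashed line. Blue points passed the threshold as lower, red points as higher and grey points did not pass: medians lie at −0.08 for cathepsins, −0.148 for other hydrolases, −0.204 for membrane proteins and −0.153 for the proton pump.

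Among the other hydrolases, 8 of 13 were lower, against 14.9% of all genes tested, and 3 were higher, a share near the background of 16.8%. The 2 largest decreases were in enzymes that clear lipids. Lipa (lysosomal acid lipase, which hydrolyses cholesteryl esters and triglycerides; ENSMUSG00000024781, chr19:34492318-34527474) was at 138, 138 and 142 FPKM in control and at 96.3, 96.3 and 93.3 FPKM in PGAM5 KD. Its log2 change was −0.54 ± 0.03 (limma, adjusted p = 4.28e-05). Gla (alpha-galactosidase A, which removes terminal galactose from glycolipids; ENSMUSG00000031266, chrX:134588149-134601125) was at 16.9, 18.1 and 18.7 FPKM in control and at 12.1, 11.3 and 11.8 FPKM in PGAM5 KD, a change of −0.57 ± 0.05 (limma, adjusted p = 0.000355). The 2 groups did not overlap for either gene.

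Smaller decreases were found for Tpp1, Psap and Hexa, which kept their calls in every setting tried. Tpp1 (tripeptidyl peptidase 1) was at 29.7, 28.5 and 30.0 FPKM in control and 25.0, 24.7 and 25.0 FPKM in PGAM5 KD, a log2 change of −0.23 ± 0.04 (limma, adjusted p = 0.00396). Psap (prosaposin, the precursor of the saposin activators of sphingolipid hydrolases), the most abundant gene of this class, was at 243, 235 and 252 FPKM in control and 218, 209 and 215 FPKM in PGAM5 KD, a change of −0.19 ± 0.04 (limma, adjusted p = 0.00813). Hexa (the alpha subunit of beta-hexosaminidase) lay at 89.1 to 93.2 FPKM in control and 82.4 to 83.0 FPKM in PGAM5 KD, a change of −0.14 ± 0.03 (limma, adjusted p = 0.0145). In each of the 3 genes the PGAM5 KD libraries lay together below the control libraries.

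Man2b1 (an alpha-mannosidase), Gaa (acid alpha-glucosidase, which degrades glycogen) and Gusb (beta-glucuronidase) were also called lower, with log2 changes of −0.24, −0.15 and −0.12, and their groups did not overlap. These 3 calls were less secure. For Man2b1 the call was lost without any single control library or without PGAM5 KD replicate 3, with a log2 change of −0.17 without the latter (limma, adjusted p = 0.0641, and from 0.0804 to 0.0947 without a control library). PGAM5 KD replicate 3 was its lowest library at 7.98 FPKM against 9.31 and 9.49 FPKM. For Gaa it was lost without any single control library or PGAM5 KD replicate 3 (limma, adjusted p from 0.0504 to 0.064), and for Gusb without control replicate 1 or 3 or any single PGAM5 KD library (limma, adjusted p from 0.0583 to 0.103). Naglu, an enzyme of heparan sulfate breakdown, lay at 14.7 to 16.7 FPKM in control and 12.4 to 14.7 FPKM in PGAM5 KD and did not pass the threshold (limma, adjusted p = 0.112), although it did after scaling to TPM (limma, adjusted p = 0.0417).

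The 3 hydrolases that were higher act on lipids, glycoconjugates and lipidated proteins. Ppt1 (palmitoyl-protein thioesterase 1, which removes fatty acyl groups from proteins) was at 33.2, 30.7 and 31.4 FPKM in control and at 39.8, 40.0 and 40.1 FPKM in PGAM5 KD, a log2 change of 0.32 ± 0.04 (limma, adjusted p = 0.0013). Smpd1 (acid sphingomyelinase) was at 4.06, 4.86 and 4.50 FPKM in control and at 5.33, 5.44 and 5.80 FPKM in PGAM5 KD, a change of 0.26 ± 0.07 (limma, adjusted p = 0.037). Glb1 (beta-galactosidase) lay at 11.4 to 12.6 FPKM in control and 13.8 to 14.6 FPKM in PGAM5 KD, a change of 0.24 ± 0.05 (limma, adjusted p = 0.0131). All PGAM5 KD libraries were above all control libraries for these 3 genes, yet only Ppt1 kept its call under every setting. The call of Smpd1 was lost without any one library other than control replicate 2 (limma, adjusted p from 0.0592 to 0.113), and that of Glb1 after scaling to TPM (limma, adjusted p = 0.0608). Ppt1 shares 129 exonic bases, 3.51% of its exon length, with Cap1 on the opposite strand, which was at 222 to 226 FPKM in control and 269.7 to 273 FPKM in PGAM5 KD, higher in the same libraries as Ppt1, and whether reads there were assigned by strand is not given. Its part in the change of Ppt1 was not tested. Asah1 (acid ceramidase) was at 25.5 to 27.1 FPKM in control and 27.9 to 29.2 FPKM in PGAM5 KD and did not pass (limma, adjusted p = 0.0828).

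All 5 membrane proteins had negative log2 changes and none of their groups overlapped, with PGAM5 KD lower as in 22.9% of all genes tested. Of the 5, 3 passed the threshold as lower, against 14.9% of all genes. Cd68 (macrosialin, a heavily glycosylated protein that marks macrophages) had the highest FPKM of all 43 genes. It was at 463, 470 and 472 FPKM in control and 404, 407 and 408 FPKM in PGAM5 KD. Its log2 change was −0.20 ± 0.02 (limma, adjusted p = 0.0011). Mcoln1 (the calcium-permeable channel TRPML1) was at 5.11, 5.24 and 5.23 FPKM in control and 4.41, 4.54 and 4.18 FPKM in PGAM5 KD, a change of −0.20 ± 0.06 (limma, adjusted p = 0.0353). Scarb2 (LIMP-2, the receptor that carries glucocerebrosidase to lysosomes) was at 9.54, 10.2 and 8.68 FPKM in control and 8.34, 8.02 and 7.73 FPKM in PGAM5 KD, a change of −0.21 ± 0.07 (limma, adjusted p = 0.0484). Cd68 stood clearly apart between groups, whereas the gap in Scarb2 was narrower than the spread of its control libraries. The calls of Mcoln1 and Scarb2 depended on single libraries: Mcoln1 was not called without any one of the 6 (limma, adjusted p from 0.0602 to 0.104), and Scarb2 not without any one other than control replicate 3 (limma, adjusted p from 0.0651 to 0.133).

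Lamp1 and Lamp2, the main structural proteins of the lysosomal membrane, were not called as deposited. Lamp1 was at 281, 284 and 284 FPKM in control and 269, 269 and 268 FPKM in PGAM5 KD, a log2 difference of −0.07 ± 0.02 that did not pass the threshold (limma, adjusted p = 0.0565) although the groups did not overlap. Lamp2 lay at 23.2 to 23.7 FPKM in control and 21.0 to 22.4 FPKM in PGAM5 KD (limma, adjusted p = 0.13). For both genes the groups lay close together but apart. After scaling to TPM, Lamp1 and Lamp2 passed as lower, with changes of −0.15 and −0.17 (limma, adjusted p = 0.00569 and 0.0273). Lamp1 also passed as lower with quantile normalization, at −0.19, and with voom (limma, adjusted p = 0.00161 and 0.0403).

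The 15 proton pump genes held the largest decreases of the set, and they were concentrated in a few subunits. In all, 7 were lower and 1 was higher, against 14.9% and 16.8% of all genes tested. Of the 8 V1 genes 5 were lower and 1 higher, of the 5 V0 genes 1 was lower, a share near that background, and of the 2 accessory genes 1 was lower. Summed V1 transcripts were at 469 to 470 FPKM in control and 397 to 402 FPKM in PGAM5 KD, while summed V0 transcripts were at 219 to 234 and 224 to 231 FPKM. The V0 sum leaves out most fragments of subunit c, which were counted on a pseudogene at 545 to 602 FPKM in control and 448 to 484 FPKM in PGAM5 KD, and the isoform gene Tcirg1, at 118 to 126 and 70.2 to 74.5 FPKM, so that the sectors cannot be set against each other by these sums.

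In V1, the genes of both catalytic-ring subunits were lower. Atp6v1b2 (subunit B2, which alternates with subunit A in the ring that hydrolyses ATP; ENSMUSG00000006273, chr8:69088646-69113711) was at 78.1, 82.7 and 82.4 FPKM in control and at 51.3, 48.5 and 48.0 FPKM in PGAM5 KD. Its log2 change was −0.71 ± 0.04 (limma, adjusted p = 5.48e-05), among the largest decreases of the 42 genes. Its rank against Atp6v0c depended on the setting: the change of Atp6v0c was smaller as deposited (−0.68), but larger with a pseudocount of 0.1 (−0.82 against −0.72), with TPM (−0.85 against −0.79), with voom (−0.83 against −0.72) and without control replicate 2 (−0.78 against −0.69). Atp6v1a (the catalytic subunit A; ENSMUSG00000052459, chr16:44085402-44139705) was at 106, 108 and 106 FPKM in control and at 85.3, 86.3 and 85.2 FPKM in PGAM5 KD, a change of −0.32 ± 0.03 (limma, adjusted p = 0.000291). In PGAM5 KD every library was below every control library for both, and the difference between their changes was not tested.

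Of the other V1 genes, Atp6v1c1, Atp6v1d and Atp6v1e1 were lower. Atp6v1c1 (subunit C1, which links the peripheral stalks and takes part in assembly and release of V1) was at 43.9, 43.3 and 43.7 FPKM in control and 31.8, 34.6 and 32.4 FPKM in PGAM5 KD, a log2 change of −0.40 ± 0.04 (limma, adjusted p = 0.000638). Atp6v1d (subunit D of the central rotor) was at 15.0, 15.8 and 15.9 FPKM in control and 13.3, 12.4 and 13.4 FPKM in PGAM5 KD, a change of −0.24 ± 0.05 (limma, adjusted p = 0.0108). Atp6v1e1 (subunit E1 of the peripheral stalks) lay at 23.7 to 24.7 and 21.0 to 22.1 FPKM, a change of −0.17 ± 0.04 (limma, adjusted p = 0.0163). None of the 3 genes overlapped between groups. Without control replicate 1 or 2 or PGAM5 KD replicate 2 or 3 the call of Atp6v1e1 was lost, with limma adjusted p from 0.0524 to 0.0555.

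The remaining 3 V1 genes were not lower. Atp6v1f (subunit F of the rotor) was the single pump gene called higher, at 76.1, 75.9 and 77.4 FPKM in control and 80.1, 84.3 and 82.2 FPKM in PGAM5 KD, a log2 change of 0.10 ± 0.03 (limma, adjusted p = 0.0471). That call was lost without any one library other than PGAM5 KD replicate 1 (limma, adjusted p from 0.0872 to 0.145), and after scaling to TPM the change was 0.025. Atp6v1g1 (subunit G1), the most abundant V1 gene beside Atp6v1a, lay at 102 to 111 FPKM in control and 94.1 to 105 FPKM in PGAM5 KD, and Atp6v1h (the regulatory subunit H) at 15.3 to 16.6 and 14.2 to 15.6 FPKM. Both overlapped between groups and did not pass the threshold, although Atp6v1h passed as lower after scaling to TPM (limma, adjusted p = 0.0458). Over the 8 V1 genes, log2 changes ran from −0.71 to 0.10.

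**Figure D3:**
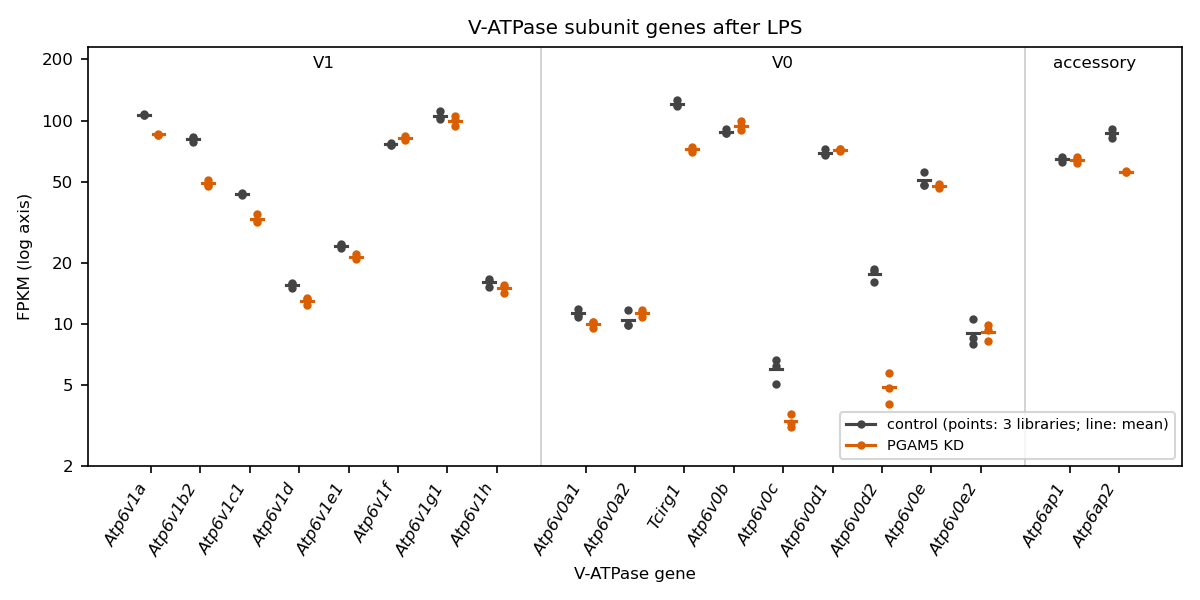
FPKM (log axis) of V-ATPase genes in each of 3 control (dark) and 3 PGAM5 KD (orange) libraries, as points with a line at the mean, for V1, V0 and accessory genes; Atp6v0a2, Tcirg1, Atp6v0d2 and Atp6v0e2 are alternative isoforms outside the 15. The orange points sit below the dark ones for Atp6v1a, Atp6v1b2 and Atp6v1c1, and by the widest gap for Atp6v0d2, at 4.07 to 5.76 against 16.2 to 18.7 FPKM.

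In V0, Atp6v0c (subunit c, the proteolipid of the rotating membrane ring; ENSMUSG00000024121, chr17:24163866-24169702) was called lower, from 6.67, 5.07 and 6.24 FPKM in control to 3.64, 3.27 and 3.13 FPKM in PGAM5 KD, a log2 change of −0.68 ± 0.10 (limma, adjusted p = 0.00309). These values rest on few of the fragments from this sequence. The processed pseudogene Atp6v0c-ps2, which was 99.8% identical to Atp6v0c over 465 aligned bases, was listed at 448 to 602 FPKM, and only 4.49% to 7.46% of the fragments of the pair were counted on Atp6v0c. Summed over the pair, control libraries had 302, 271 and 291 fragments (per 1000000 of the library) and PGAM5 KD libraries 220, 228 and 236, a log2 change of −0.34 (limma, adjusted p = 0.00246), in a summation chosen after seeing the data. The summed values also did not overlap between groups. Which of these fragments came from Atp6v0c cannot be told apart in these tables.

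The other 4 V0 genes did not pass the threshold. Atp6v0d1 (subunit d1, at the base of the central stalk) lay at 67.7 to 72.4 FPKM in control and 70.8 to 72.8 FPKM in PGAM5 KD. Atp6v0b (subunit c″ of the ring) lay at 86.5 to 90.8 and 89.9 to 99.8 FPKM, and Atp6v0e (subunit e1) at 48.4 to 56.0 and 46.7 to 48.7 FPKM. These 3 genes overlapped between groups. Atp6v0a1 (subunit a1, a part of the proton path) was at 10.9, 11.1 and 11.9 FPKM in control and 10.3, 9.57 and 10.3 FPKM in PGAM5 KD, without overlap, at a log2 difference of −0.15 ± 0.05 (limma, adjusted p = 0.0694), and was called lower after scaling to TPM or by voom (limma, adjusted p = 0.0271 and 0.0469).

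The accessory proteins parted. Atp6ap2 (the prorenin receptor, needed for assembly of the pump; ENSMUSG00000031007, chrX:12587801-12617049) was at 87.2, 91.2 and 82.4 FPKM in control and at 55.7, 55.8 and 56.8 FPKM in PGAM5 KD, a log2 change of −0.62 ± 0.04 (limma, adjusted p = 0.000111). Atp6ap1 (Ac45, its partner in assembly) was at 64.5, 66.2 and 62.9 FPKM in control and at 64.5, 61.7 and 66.6 FPKM in PGAM5 KD, a difference of −0.01 ± 0.04 (limma, adjusted p = 0.92). Atp6ap2 was thus above Atp6ap1 in every control library and below it in every PGAM5 KD library.

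V0 also has isoform genes outside the 43. Of 21 other V-ATPase subunit and assembly genes, 13 were tested, 3 were lower and 1 was higher, with a median log2 change of 0.014. Over all genes tested, 14.9% were lower and 16.8% higher, at a median of 0.013, so that the median of the list was level with that of all genes. Atp6v0d2 (subunit d2, an isoform of d1 found in macrophages and osteoclasts) was at 18.2, 18.7 and 16.2 FPKM in control and at 5.76, 4.07 and 4.88 FPKM in PGAM5 KD, a log2 change of −1.67 ± 0.11 (limma, adjusted p = 9.44e-05). Tcirg1 (subunit a3, the a isoform of lysosomes and osteoclasts) was at 126, 118 and 119 FPKM in control and at 70.2, 72.0 and 74.5 FPKM in PGAM5 KD, a change of −0.74 ± 0.04 (limma, adjusted p = 4.14e-05). Both groups stood well apart for these genes. Dmxl1 (a subunit of the rabconnectin complex, which promotes pump assembly) was lower by a log2 change of −0.59, and Ccdc115 (an assembly factor) was higher at 0.19, a call that scaling to TPM ended (limma, adjusted p = 0.0558).

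With these isoforms included, the summed transcripts for subunit a (Atp6v0a1, Atp6v0a2 and Tcirg1) were at 147, 139 and 143 FPKM in control and 92.0, 92.5 and 96.6 FPKM in PGAM5 KD, a ratio of 0.655. Tcirg1 made up 83.5% to 85.9% of that sum in control and 76.3% to 77.8% in PGAM5 KD. For subunit d (Atp6v0d1 and Atp6v0d2), the sums were 86.8, 86.4 and 88.7 FPKM in control and 78.5, 76.8 and 75.7 FPKM in PGAM5 KD, a ratio of 0.882, and the share of Atp6v0d2 was 18.3% to 21.7% in control and 5.31% to 7.34% in PGAM5 KD. Both sums and both shares were lower in every PGAM5 KD library than in any control library. Atp6v0d2 is also 1 of 8 osteoclast marker genes, which summed to 299 to 310 FPKM in control and 219 to 226 FPKM in PGAM5 KD. Of the 5 tested, 4 were lower, against 14.9% of all genes tested, and 1, the protease gene Ctsk, was higher, against 16.8%. Calcr was listed at 0 in every library. Ctsk and Calcr were named after their values were seen. The part of this list in the changes of pump genes was not tested.

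By class, summed transcripts stood in similar ratios between the groups. The summed level of the 43 genes was 3988 to 4003 FPKM in control and 3538 to 3586 FPKM in PGAM5 KD, a ratio of 0.89, or 0.843 on the TPM scale. The ratio was 0.897 for cathepsins, 0.875 for other hydrolases, 0.899 for membrane proteins and 0.883 for the proton pump. In each class the sums of the 2 groups did not overlap. These sums are carried by the abundant genes, and whether the classes differ from each other was not tested.

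Other genes of the lysosome, taken from lists written with earlier results of these data known, were lower more often than higher in most lists, against 14.9% lower and 16.8% higher of all genes tested, whose median log2 change was 0.013. No list was tested against all genes. Of 48 other hydrolases and activators, 38 were tested, 12 were lower and 4 higher, with a median log2 change of −0.092. Acp5 (tartrate-resistant acid phosphatase, also on the osteoclast list) was at 92.9, 82.0 and 88.2 FPKM in control and 39.4, 40.9 and 41.7 FPKM in PGAM5 KD, a change of −1.09 ± 0.05 (limma, adjusted p = 2.54e-05). Hyal1 (a hyaluronidase) was at 4.87, 4.68 and 4.77 FPKM in control and 1.95, 1.92 and 1.63 FPKM in PGAM5 KD, a change of −1.03 ± 0.08 (limma, adjusted p = 0.000171). These 2 exceeded every decrease among the 42 genes. Idua (alpha-L-iduronidase), an enzyme of glycosaminoglycan breakdown like Hyal1, was lower by a log2 change of −0.79.

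Of 38 other membrane proteins and transporters, 31 were tested, with a median of −0.113. Of these, 13 were lower, against 14.9% of all genes tested, and 2 higher, against 16.8%. Slc15a3 (a transporter of histidine and small peptides out of endolysosomes) was the largest increase, at 11.7, 12.2 and 12.0 FPKM in control and 25.0, 24.5 and 23.1 FPKM in PGAM5 KD, a log2 change of 0.96 ± 0.05 (limma, adjusted p = 2.54e-05). Clcn7 (the lysosomal chloride-proton exchanger ClC-7) was at 17.2, 15.9 and 18.0 FPKM in control and 9.86, 8.98 and 8.08 FPKM in PGAM5 KD, a change of −0.86 ± 0.08 (limma, adjusted p = 0.000359). The groups lay far apart for both. Slc11a2 (the iron transporter DMT1) and Tpcn2 (a cation channel) were lower, at −0.67 and −0.57.

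The genes that deliver enzymes to lysosomes were lower in 9 of 21, against 14.9% of all genes tested. They were higher in 3, near the background of 16.8%, and their median was −0.079. With a library left out, 6 to 7 were lower and 2 to 3 higher. Gnptab (the phosphotransferase that starts the mannose 6-phosphate tag) was at 32.6, 33.7 and 33.0 FPKM in control and 21.3, 20.8 and 20.9 FPKM in PGAM5 KD, a log2 change of −0.63 ± 0.03 (limma, adjusted p = 4.71e-05). Igf2r (the large mannose 6-phosphate receptor) was at 51.3, 48.8 and 51.1 FPKM in control and 37.1, 34.4 and 34.8 FPKM in PGAM5 KD, a change of −0.50 ± 0.04 (limma, adjusted p = 0.000281). Both genes were lower in every PGAM5 KD library than in any control library. Gnptg, which encodes another subunit of the same phosphotransferase and was named after its values were seen, lay at 4.48 to 5.76 FPKM in control and 4.97 to 6.01 FPKM in PGAM5 KD and did not pass the threshold (limma, adjusted p = 0.621). Vps26a (a retromer subunit, which returns sorting receptors) and Ap3d1 (a subunit of the AP-3 adaptor) were lower at −0.64 and −0.40. Of 13 cathepsin inhibitors, 4 were tested: Serpinb6a, an intracellular serpin, was higher at 0.36 and Cstb (cystatin B) was lower at −0.30.

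**Figure D4:**
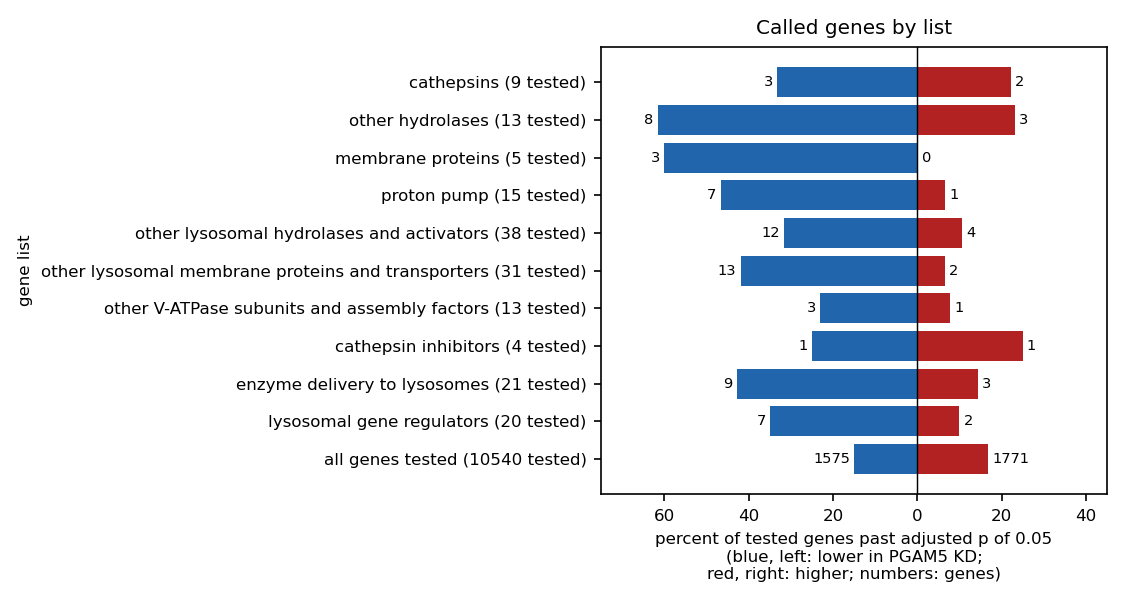
Percent of tested genes called lower (blue, left) or higher (red, right) in PGAM5 KD for the 4 classes, the 6 further lists and all 10540 genes tested, with the number of genes at each bar. Other hydrolases (8 of 13 lower) and membrane proteins (3 of 5 lower) reach furthest to the left, against 1575 lower and 1771 higher of all genes.

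Regulators of lysosomal genes were lower in 7 of 20 tested, against 14.9% of all genes tested, and higher in 2, against 16.8%. The list held 22 genes, and the median of those tested was −0.118. Fnip2 (folliculin-interacting protein 2) was at 57.3, 58.7 and 56.9 FPKM in control and 31.3, 29.2 and 29.4 FPKM in PGAM5 KD, a log2 change of −0.92 ± 0.04 (limma, adjusted p = 2.05e-05). Flcn (folliculin, which with its partners acts on the Rag GTPases that hold TFEB and TFE3 in the cytosol) was at 15.8, 15.8 and 16.3 FPKM in control and 9.79, 10.4 and 10.3 FPKM in PGAM5 KD, a change of −0.60 ± 0.04 (limma, adjusted p = 0.000153). Fnip1 was lower as well, at −0.55 (limma, adjusted p = 0.00195). Flcn and both of these partner genes were thus lower in every PGAM5 KD library than in any control library. Lamtor4 (a subunit of the Ragulator complex) was called higher at 0.38 (limma, adjusted p = 0.0291), a call lost without control replicate 2 or 3 or PGAM5 KD replicate 2 or 3, with limma adjusted p from 0.0658 to 0.0839. The list's count of lower genes was 4 without PGAM5 KD replicate 2 or 3. Tfeb, Tfe3 and Mitf, transcription factors that bind lysosomal promoters, were named after their values were seen: Tfeb (1.75 to 2.49 against 1.72 to 2.02 FPKM) and Tfe3 (11.0 to 12.3 against 11.1 to 12.0 FPKM) overlapped between groups, and Mitf was lower at −0.30 (limma, adjusted p = 0.00867).

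Because these factors recognise an E-box, CACGTG, and the CLEAR element built on it, promoter sequences from RefSeq (GRCm38.p6; 250 bases before to 50 after each gene's start) were searched on both strands for CACGTG and for its extension TCACGTG, each match of which also holds CACGTG. A gene with several RefSeq starts was counted if any of them held the motif. Promoters were found for 36 of the 43 genes. CACGTG was in 15 of the 36 (41.7%), against 12.4% of 7679 tested genes with a promoter and 8.09% of all 27025 genes with a RefSeq promoter. TCACGTG was in 13 (36.1%), against 7.53% and 4.29%. By outcome, CACGTG was held by 5 of 18 genes that were lower, 2 of 6 that were higher, and 8 of 12 that did not pass the threshold. For Ctsa and Lgmn, both among these 8, the motif was only at a second RefSeq start, in whose promoter no GENCODE transcript starts, and without such starts 13 of the 36 genes, and 6 of the 12, held it. Promoters with the motif were therefore found in all 3 outcomes, and a match describes these letters only, not binding.

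The sequences below are shown because they set genes with the same element side by side although their changes differed. Each is printed in the direction of its gene, with capitals for the motif.
Gla, chrX:134601182-134601211 (log2 change −0.57): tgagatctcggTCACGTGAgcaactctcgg
Ctsd, chr7:142387908-142387937 (−0.40): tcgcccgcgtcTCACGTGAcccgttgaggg
Atp6v1a, chr16:44139373-44139402 (−0.32): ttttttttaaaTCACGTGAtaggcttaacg
Mcoln1, chr8:3500462-3500491 (−0.20): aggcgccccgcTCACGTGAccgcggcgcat
Gaa, chr11:119267811-119267840 (−0.15): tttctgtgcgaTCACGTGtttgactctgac
Ctsa, chr2:164833749-164833772 (−0.08, not past the threshold): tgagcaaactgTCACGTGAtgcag
Lgmn, chr12:102439124-102439153 (0.05, not past the threshold): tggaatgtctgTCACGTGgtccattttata
Glb1, chr9:114401018-114401047 (0.24): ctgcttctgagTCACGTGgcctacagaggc
Gla, Ctsd, Atp6v1a, Mcoln1 and Ctsa hold the palindrome TCACGTGA, whereas Gaa, Lgmn and Glb1 extend the E-box on 1 side, so that each form occurs in genes called lower and in genes not called. In GENCODE M21 the stretches of Ctsd, Mcoln1 and Ctsa lie in exons of their own genes, that of Gla lies in an exon of the neighbouring Hnrnph2, and the others lie outside exons. Lamp1, which did not pass the threshold, held the most E-boxes of the 36, 4 within the 70 bases upstream of its start, shown for their spacing.
Lamp1, chr8:13159091-13159160: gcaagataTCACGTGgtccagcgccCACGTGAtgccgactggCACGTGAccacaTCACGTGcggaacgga

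**Figure D5:**
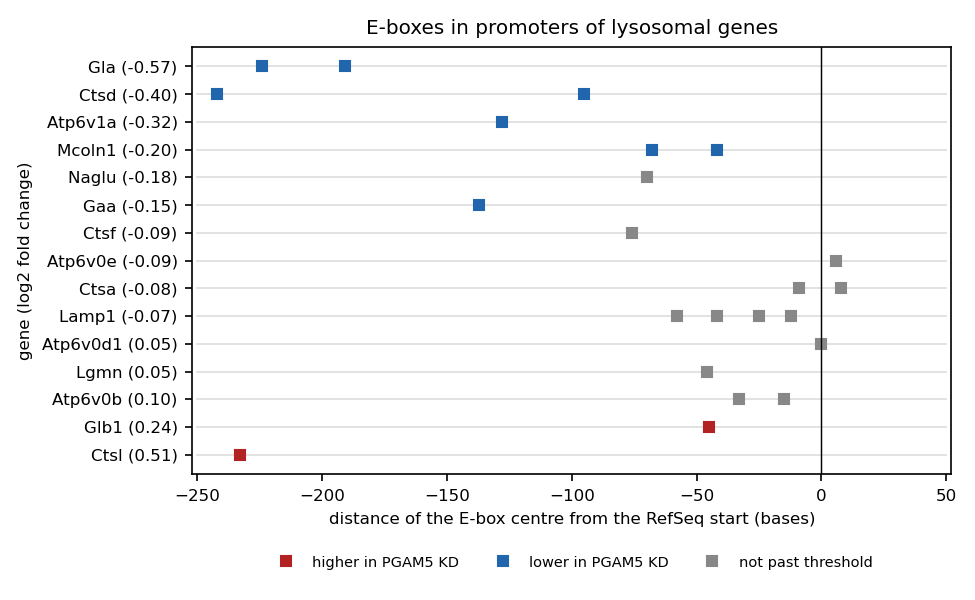
Position of each CACGTG (squares, distance of its centre from the RefSeq start in bases) in the promoters of the 15 lysosomal genes that hold it, ordered by log2 fold change (in brackets). Blue marks genes lower in PGAM5 KD, red genes higher and grey genes not past the threshold, with 4 squares for Lamp1. Counted to the first base of the motif, no grey square lies more than 79 bases before the start, and blue squares lie 45 to 245 bases before it. Of the 2 red genes, Ctsl has its square 236 bases before the start and Glb1 has it 48 bases before. The grey squares of Ctsa and Lgmn belong to a second RefSeq start. Whether position goes with the change was not tested.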

How the data were processed

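RNA-seq was compared between 3 control and 3 PGAM5 KD iBMDM libraries, grouped by their labels. The authors deposited FPKM per Ensembl gene. The submitters' processing notes name HISAT2 2.0.5, featureCounts 1.5.0-p3 and mm10; strand setting and annotation are not given in the sources used here. FPKM times GENCODE M21 exon length was whole (within 0.01 of a fragment) for 96.8% to 97.1% of values, which gave 18163464 to 24388917 fragments per library. Libraries of a group differed beyond counting error (chi-square per degree of freedom of 4.68 or more).

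FPKM are not counts, so limma 3.58.1 in R 4.3.3 (lmFit, eBayes with trend, two-sided, Benjamini-Hochberg over 10540 genes) was fitted to log2(FPKM + 1) for genes with a mean of at least 1 FPKM. The script was tested on simulated data. Log2 changes understate those of low genes. An exact permutation test over 3 against 3 libraries cannot give a p under 0.1. Similar genes were found with blastn 2.17.0 (at least 85% identity over 200 bases). Every one of the 43 genes is named, with at most 4 called genes of each further list, by size of change; 1 gene so selected is not reported here, and genes named after their values were seen are marked as such. The 43 genes, the lists and the tests were chosen with earlier results of these data known. Alternatives changed the pseudocount, filter, scaling, variance model, replicate block and libraries.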

Additional observations from a re-analysis of the deposited data

How the results depend on the processing

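Of the 27 called lysosomal genes, 17 kept direction and call in every planned setting in which they were tested (Ctsc and Atp6v0c were not tested at a minimum mean of 5 FPKM), and the 10 that lost it in 1 or more were Atp6v1e1, Atp6v1f, Ctss, Gaa, Glb1, Gusb, Man2b1, Mcoln1, Scarb2 and Smpd1. No called gene changed sign. Of the 15 genes not called, 4 kept direction and side of the threshold throughout, and Ctsa, Ctsz, Naglu, Lamp1, Lamp2, Atp6v0a1 and Atp6v1h were called lower in 1 to 3 of the settings TPM, quantile normalization and voom. Scaling to TPM, with the minimum applied to TPM and so 12631 genes tested in place of 10540, gave 3 higher and 27 lower lysosomal genes and 1083 higher and 2268 lower genes in all, with class medians of −0.159 (cathepsins), −0.23 (other hydrolases), −0.283 (membrane proteins) and −0.239 (proton pump), and a median over all genes of −0.066. Quantile normalization gave medians of −0.16 for cathepsins and −0.205 for other hydrolases, and a minimum mean of 5 FPKM gave −0.148 for membrane proteins. Leaving out each library in turn gave 4 to 5 higher and 15 to 17 lower lysosomal genes, and medians from −0.089 to −0.041 for cathepsins (−0.041 without control replicate 2 and −0.044 without PGAM5 KD replicate 1), −0.157 to −0.132 for other hydrolases, −0.206 to −0.162 for membrane proteins and −0.17 to −0.119 for the proton pump. The sign changed only for genes that were not called: Lgmn (−0.025 with TPM, −0.031 with quantile normalization), Atp6v0d1 (−0.027 and −0.03), Atp6ap1 (0.001 when centred on the median, and −0.032 to 0.022 with a library left out, above 0 without control replicate 2 or PGAM5 KD replicate 2) and Ctsf (−0.182 to 0.011 with a library left out, above 0 without control replicate 2). With Atp6v0c summed with its pseudogene, an alternative chosen after seeing the data, 21 genes were still lower.

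Replicate numbers are shared between groups, but same-numbered libraries did not deviate together (correlations of −0.02, 0.016 and −0.052). With a replicate block, 4 lysosomal genes were higher and 17 lower. Counts in the further lists were recomputed after seeing the data. Higher genes among other hydrolases were 2 with no filter, at 5 FPKM, with TPM, quantile normalization or the replicate block, and 2 to 4 with a library left out. Other membrane proteins had 1 higher with TPM. Other V-ATPase genes had 2 higher at 5 FPKM, centred on the median or with array weights, 0 higher and 5 lower with TPM, 6 lower with voom, and 1 to 2 higher with a library left out (2 without PGAM5 KD replicate 1). Cathepsin inhibitors had 2 higher with no filter. Regulators had 1 higher with no filter, TPM or the replicate block, and 1 to 2 higher and 4 to 6 lower with a library left out. The calls of 23 genes outside the 43 were followed, Pgam5 as the targeted gene and the others selected by size of change. Of these, 21 kept their calls in every setting in which they were tested, all but Lamtor4 and Ccdc115. Idua, Hyal1 and Tpcn2 were not tested at 5 FPKM. The causes were not tested. Among the called genes of the 43, depth limits Smpd1 and Ctsc most, with as few as 246 and 377 fragments in a library, while the 201 counted on Atp6v0c depend on the split with its pseudogene.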
